A study of Sus scrofa with 30 samples.

Results

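The mammary gland at peak lactation (PL, day 10 postpartum) was compared with the gland at late gestation (LG, day 110 of gestation) in pigs. The study took 30 samples of mammary tissue, 6 at each of 5 stages, from multiparous half-sibling sows of a Danish Landrace × Yorkshire cross, each killed at a single stage, and sampled the parenchyma of the third gland on the left away from fat and skin. All sows were untreated and shared breed, housing and sampling site, and the groups were set by stage. By the paper's list of animals, the LG sows were also heavier than the PL sows. RNA was sequenced as TruSeq libraries, and the deposited table gives a value for each of 61773 transcripts in each sample. In both stages 3 of the 6 samples repeated the mean of the other 3 with little added variation: the largest median difference between them was 1.82% in LG and 1.85% in PL, against at least 19.6% and 23.0% between any pair of the others. They were therefore not counted, and the comparison rests on 6 of the 30 samples, namely PL samples 2, 3 and 6 and LG samples 1, 3 and 4. Titles and stage names in the labels matched for all PL and LG samples. Among the other stages, which lend the fit only their spread, titles and stage names did not match: EL titles stood beside mid-gestation and MG titles beside early lactation.

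Late gestation is the time in which the lobules and alveoli of the gland fill the parenchyma and the epithelial cells start to make colostrum. After farrowing progesterone falls away, prolactin and glucocorticoids drive the same cells into copious secretion, and the milk changes from colostrum to mature milk. A secretory cell of the lactating gland makes caseins and whey proteins at the endoplasmic reticulum, lactose in the Golgi apparatus, and fat droplets that leave wrapped in membrane as milk fat globules.

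Values are called units here. They added up to between 997480 and 1002643 in each sample, so a rise of some transcripts lowers the values of the rest. This matters because the 20 most abundant transcripts took 59.9% of all units in PL sample 2, 43.0% and 42.2% in PL samples 3 and 6, and 30.0 to 34.3% in the LG samples. PL sample 2 stood apart from both other PL samples. It listed 34065 transcripts above 0, against 42357 and 39524 in PL samples 3 and 6 and 44724 to 44779 in LG, and its median-ratio factor, estimated from transcripts of at least 10 units in every sample, was 0.567 against 0.841 and 0.840 in PL and 1.02 to 1.10 in LG. Counts and list medians are therefore given both as deposited and after median-ratio scaling. Values of single genes are as deposited, and the result after scaling is added where scaling changed the call and for the milk proteins that rose. The median log2 fold change (PL minus LG, on the log2(units + 0.5) scale throughout) of all 26004 genes and loci was -0.45 as deposited and -0.06 after scaling. The table holds no read counts, so the number of reads behind a value is unknown and the error comes from the spread between samples. The paper lists the mapped reads of each library, and PL sample 2 had more of them than PL samples 3 and 6. With 3 samples against 3 an exact permutation test cannot give a two-sided p below 0.10, and tests were made with limma across all features.

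Of the 61773 transcripts, 166 were higher in PL (0.269%) and 508 lower (0.822%) at a limma adjusted p below 0.05 and a change of at least 2 on the log2 scale. After scaling these were 268 (0.434%) and 303 (0.491%). A total of 165 of the higher and 302 of the lower transcripts were called under both. Transcript values were also summed by gene, and a gene passed at an adjusted p below 0.05 with no demand on its size. As deposited 421 of 26004 genes and loci rose (1.62%) and 3413 fell (13.1%), and after scaling 976 rose (3.75%) and 1351 fell (5.2%). The share of falls among the passing genes was 89.0% as deposited and 58.1% after scaling. Of the genes that passed as deposited, 407 rose and 1351 fell under both scalings, and the samples of PL and LG did not overlap for 33.9% of all genes as deposited and 24.8% after scaling. With PL and LG fitted without the spread of the other stages, 88 genes rose and 574 fell. Without PL sample 2, 831 rose and 2387 fell, and without LG sample 4, 209 rose and 1484 fell.

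Of the 7 milk protein genes 4 rose in PL under both scalings and 0 fell. Over all genes, 1.62% rose and 13.1% fell as deposited, and 3.75% rose and 5.2% fell after scaling. The caseins CSN1S2 and CSN3 and the whey proteins LALBA and WAP rose, whereas CSN1S1, CSN2 and PAEP did not pass in either direction. Without LG sample 4 or PL sample 2 the count of rises was 2, and without LG sample 1 CSN1S1 fell by 1.07 (adjusted p = 0.0446). Together the 7 genes took 40.8, 24.9 and 22.6% of all units in PL and 18.0, 20.5 and 15.9% in LG. Values are listed in the order of samples 2, 3 and 6 of PL and 1, 3 and 4 of LG.

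WAP, the whey acidic protein (chromosome 18 from 50359599 to 50361906 in Sscrofa11.1, the authors' build), stood at 12052, 8104 and 5910.1 units in PL and 123, 65.0 and 6.93 in LG. Every PL sample lay far above every LG sample, and the log2 fold change of 7.73 (standard error 1.33, adjusted p = 0.00298) was the largest rise of any reference gene. LALBA, alpha-lactalbumin, which turns a galactosyltransferase into lactose synthase (chromosome 5 from 79214487 to 79216791), stood at 30875, 6565 and 2041 units in PL and 217, 272 and 14.6 in LG. The stages did not overlap, but samples of the same stage differed widely, with PL sample 6 lowest in PL and LG sample 4 lowest in LG. Its log2 fold change was 6.27 (standard error 1.52, adjusted p = 0.0177), and the call was lost without LG sample 4 (adjusted p = 0.0839) or PL sample 2 (adjusted p = 0.0671). CSN1S2, alpha-S2-casein, lay at 84152, 47887 and 32080.2 units in PL and 3531, 2088 and 95.1 in LG, with LG sample 4 far below the other LG samples and no overlap between stages. It rose by 5.83 (standard error 1.49, adjusted p = 0.0227), a call that was lost without LG sample 4 (adjusted p = 0.0964) or PL sample 2 (adjusted p = 0.0698). CSN3, kappa-casein, which coats the casein micelle, was at 51705, 27038 and 28090.3 units in PL and 7072, 9712 and 4041 in LG. The stages did not overlap, and the log2 fold change was 2.38 (standard error 0.44, adjusted p = 0.00441). After scaling the log2 fold changes were 8.23 for WAP, 6.77 for LALBA, 6.33 for CSN1S2 and 2.88 for CSN3.

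CSN1S1, alpha-S1-casein, was at 7573, 10909 and 5455 units in PL and 7569.7, 15187 and 17152 in LG, and the stages overlapped (log2 fold change -0.71, standard error 0.32, adjusted p = 0.151). CSN2, beta-casein, was at 98647, 38297 and 17661 units in PL and 21151, 31971 and 12576 in LG, and PL sample 6 lay below 2 of the 3 LG samples (log2 fold change 0.99, standard error 0.62, adjusted p = 0.298). PAEP, beta-lactoglobulin, was the most abundant of the 7 in both stages, at 122069, 110169 and 134097 units in PL and 140236, 144915 and 125190.0 in LG. Its log2 fold change was -0.17 (standard error 0.14, adjusted p = 0.463) as deposited and 0.34 (standard error 0.21, adjusted p = 0.359) after scaling, so its sign depended on the scaling. The 4 casein genes lie in a single stretch of chromosome 8, with CSN1S1 starting at 66888231 and CSN3 ending at 67109112, so members of a gene cluster were on both sides of the threshold. LALBA, CSN1S1, CSN2, CSN3 and PAEP were each listed as 1 transcript. In the limma test among transcripts that of LALBA was called as deposited (adjusted p = 0.0484) but not after scaling (adjusted p = 0.0559). CSN1S2 had a main transcript, NM_001004030.1, at 84107, 47856 and 32066 units in PL and 3531, 2088 and 95.1 in LG, which did not pass among transcripts (5.83, standard error 1.68, adjusted p = 0.1), and a minor one, XM_021100497.1, listed at 0 in each LG sample but at 44.0, 31.1 and 14.3 units in PL, which was called.

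Most genes of proteins that milk carries for defence rose. Of 20 genes measured, 12 rose and 1 fell as deposited, and 14 rose and 0 fell after scaling, against 1.62% and 13.1% of all genes as deposited. Their median log2 fold change was 3.63 as deposited and 4.02 after scaling. Between 9 and 13 of them rose with each sample left out in turn. Summed, they took 4.30, 6.50 and 6.53% of all units in PL and 0.560, 0.665 and 0.375% in LG, and the ratio of the PL to the LG mean was 10.8. SAA3 was the most abundant member in each PL sample and PGLYRP1 in each LG sample.

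SAA3, a serum amyloid A made by the mammary epithelium (chromosome 2 from 41021349 to 41025950), stood at 31130.5, 49876 and 48332 units in PL and 1292, 1508 and 718 in LG. The values were close within each stage and the log2 fold change was 5.24 (standard error 0.35, adjusted p = 1.36e-05). All 3 SAA3 transcripts were called, the main one, NM_001044552.1, at 27299.8, 41008 and 40003 units in PL and 1004, 1245 and 617 in LG. HP, haptoglobin, which binds free haemoglobin, was at 2179, 4941 and 5848 units in PL and 96.0, 622 and 197 in LG and rose by 4.12 (standard error 0.75, adjusted p = 0.00413). TCN1, which carries vitamin B12 in milk, was at 127, 150.4 and 169 units in PL and 2.43, 4.30 and 1.62 in LG and rose by 5.58 (standard error 0.63, adjusted p = 0.000352). SPP1, the milk phosphoprotein osteopontin, was at 98.9, 179.9 and 296 units in PL and 9.22, 13.3 and 18.9 in LG and rose by 3.67 (standard error 0.50, adjusted p = 0.000968). LPO, lactoperoxidase, an antibacterial enzyme of milk, was at 74.7, 13.1 and 11.1 units in PL and 1.02, 0.523 and 0.339 in LG and rose by 4.39 (standard error 0.74, adjusted p = 0.0027).

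A further set had low values in PL sample 2 and high values in both other PL samples. LBP, which binds bacterial lipopolysaccharide, was at 246, 2271 and 2232 units in PL and 15.2, 39.1 and 14.3 in LG and rose by 5.68 (standard error 0.82, adjusted p = 0.00129). CD14, its partner receptor, was at 9.23, 234 and 298 units in PL and 5.28, 5.48 and 6.61 in LG and rose by 3.81 (standard error 0.93, adjusted p = 0.0183). C3, the central complement component, was at 75.2, 1382 and 1461 units in PL and 68.7, 48.7 and 64.5 in LG and rose by 3.14 (standard error 0.88, adjusted p = 0.0332). For these 3 genes PL sample 2 was above every LG sample, and for CD14 and C3 it was nearer to them than to the other PL samples. CD14 was lost without LG sample 1, 3 or 4 or without PL sample 3 or 6 (adjusted p from 0.0514 to 0.0585), and C3 without LG sample 1, 3 or 4 or without PL sample 3 or 6 (adjusted p from 0.0762 to 0.093). LCN2, which captures bacterial iron carriers, was at 9.43, 1122 and 1647 units in PL and 16.8, 18.7 and 17.3 in LG, with PL sample 2 below all LG samples, and did not pass (3.87, standard error 1.36, adjusted p = 0.0736). Without PL sample 2 it passed, with 6.23 (adjusted p = 1.33e-07).

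**Figure D1:**
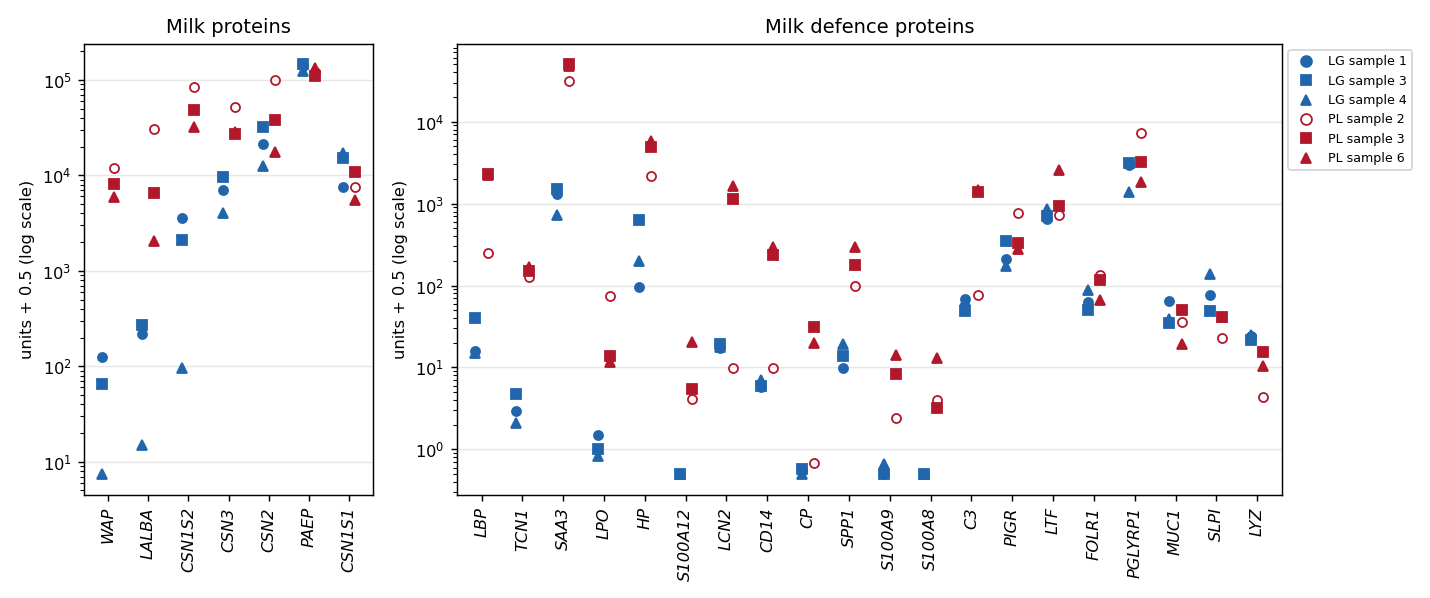
Units + 0.5 on a log axis for 7 milk protein genes and 20 milk defence genes, one symbol per sample, LG in blue and PL in red with PL sample 2 open. PL and LG do not overlap for WAP, LALBA, CSN1S2 and CSN3 but do for CSN2, PAEP and CSN1S1, and PL sample 2 lies near the LG samples for CD14, C3, CP and LCN2.

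The calgranulins S100A8, S100A9 and S100A12, antimicrobial calcium-binding proteins abundant in neutrophils, appeared in PL at low values. S100A8 was listed at 0 in each LG sample but at 3.50, 2.69 and 12.7 units in PL. S100A12 was listed at 0 in each LG sample but at 3.66, 4.96 and 19.8 units in PL. S100A9 was at 1.93, 7.86 and 13.9 units in PL and 0, 0 and 0.168 in LG and rose by 3.59 (standard error 0.54, adjusted p = 0.00163). These 3 are the only members of the list of 8 neutrophil markers that rose, and they are also in the defence list. FCGR3A (log2 fold change -1.41) and ITGAM (-1.18) fell under both scalings, ITGAM not without LG sample 4 (adjusted p = 0.0576), and CSF3R (-0.59) and ELANE (-0.82) did not pass. The list's summed level was 26.4 to 70.5 units in PL and 49.5 to 70.7 in LG. ELANE, a defining protease of neutrophil granules, did not exceed 0.343 units in PL.

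Other defence genes fell or did not pass as deposited. LYZ, lysozyme, was at 3.88, 14.8 and 9.93 units in PL and 23.6, 20.9 and 24.0 in LG and was the member that fell as deposited (-1.39, standard error 0.42, adjusted p = 0.0434), a call that was lost after scaling (-0.92, standard error 0.36, adjusted p = 0.14) and without LG sample 1, 3 or 4 or without PL sample 2 or 6 (adjusted p from 0.0535 to 0.125). LTF, lactoferrin, was at 721, 925 and 2580.2 units in PL and 654, 708 and 867 in LG, with all stages high, and did not pass as deposited but did after scaling (1.20, standard error 0.33, adjusted p = 0.042). PIGR, the receptor that carries immunoglobulin A into milk, was at 769.6, 327 and 275 units in PL and 207, 350.1 and 170.4 in LG and overlapped between stages (0.83, standard error 0.39, adjusted p = 0.169). PGLYRP1, which binds bacterial cell walls, was at 7333, 3222 and 1830.4 units in PL and 2989, 3164 and 1375 in LG and overlapped too (0.58, standard error 0.50, adjusted p = 0.456).

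Genes for the remaining constituents of milk moved in smaller numbers. Their lists stand beside all genes, of which 1.62% rose and 13.1% fell as deposited and 3.75% rose and 5.2% fell after scaling. Of 11 lactose genes 1 rose and 1 fell (median log2 fold change -0.19 as deposited and 0.30 after scaling). B4GALT1, the galactosyltransferase that LALBA binds, was at 408, 249 and 364 units in PL and 292, 342 and 284 in LG and did not pass (0.13, standard error 0.21, adjusted p = 0.713), so its levels overlapped where those of LALBA did not. SLC2A1, the main glucose carrier of the gland, was at 22.1, 31.5 and 17.2 units in PL and 27.6, 31.8 and 30.7 in LG and did not pass (-0.38, standard error 0.30, adjusted p = 0.407). The member that rose was HK2, a hexokinase, at 2.31, 2.52 and 1.30 units in PL and 0.474, 0.901 and 0.405 in LG (1.21, standard error 0.31, adjusted p = 0.0244), and that call was lost without LG sample 1 or 4 or without PL sample 2 or 3 (adjusted p from 0.0522 to 0.09). The member that fell was PGM1, phosphoglucomutase (-0.95, standard error 0.23, adjusted p = 0.0177), lost without LG sample 3 (adjusted p = 0.0627) or LG sample 4 (adjusted p = 0.0677) and after scaling.

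Of 15 genes of fatty acid synthesis 3 rose and 2 fell as deposited, and 4 rose and 1 fell after scaling. Without PL sample 2 or any single LG sample 1 rose. INSIG1, which holds back the sterol-sensing factor SREBP, was at 114, 73.7 and 30.6 units in PL and 14.7, 12.8 and 11.4 in LG and rose by 2.26 (standard error 0.36, adjusted p = 0.00223). SCD, the desaturase that makes oleic acid, was at 561, 184 and 95.4 units in PL and 80.3, 74.1 and 46.9 in LG and rose by 1.71 (standard error 0.51, adjusted p = 0.0417). ELOVL6, which elongates palmitic acid, was at 38.1, 44.8 and 22.7 units in PL and 12.9, 10.6 and 16.2 in LG and rose by 1.34 (standard error 0.38, adjusted p = 0.0335). Both calls were fragile: SCD was lost without LG sample 1, 3 or 4 or without PL sample 2 or 3 (adjusted p from 0.0549 to 0.148), and ELOVL6 without LG sample 1, 3 or 4 or without PL sample 2 or 3 (adjusted p from 0.0643 to 0.1). ACSS2, which activates acetate, was at 22.4, 61.0 and 64.3 units in PL and 125, 124 and 149 in LG and fell under both scalings, by 1.56 (standard error 0.33, adjusted p = 0.00891) as deposited. SREBF1, which encodes the transcription factor that drives these genes, was at 120.1, 119 and 80.8 units in PL and 247, 208 and 239.6 in LG. It fell as deposited (-1.13, standard error 0.23, adjusted p = 0.00747) and did not pass after scaling (-0.63, standard error 0.24, adjusted p = 0.134). FASN, fatty acid synthase, was listed at 6.63, 0.183 and 18.1 units in PL and 0.116, 0.241 and 0.0781 in LG and did not pass (2.81, standard error 1.21, adjusted p = 0.135).

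The 15 genes of cholesterol synthesis moved up or did not pass: 4 rose as deposited and 6 after scaling, with none falling, and 2 to 5 rose with each sample left out. Their median was 0.30 as deposited and 0.80 after scaling. HMGCS1, which makes the precursor of mevalonate, was at 399, 131 and 52.6 units in PL and 26.0, 29.0 and 24.1 in LG and rose by 2.39 (standard error 0.51, adjusted p = 0.00994). SQLE, squalene epoxidase, was at 11.8, 13.0 and 6.28 units in PL and 3.60, 2.64 and 3.68 in LG and rose by 1.46 (standard error 0.33, adjusted p = 0.0117). SC5D, a late enzyme of the pathway, was at 34.6, 16.9 and 15.9 units in PL and 5.39, 7.57 and 3.69 in LG and rose by 1.88 (standard error 0.41, adjusted p = 0.011), a call lost without LG sample 4 (adjusted p = 0.0558). STARD4, a sterol carrier, rose by 1.28 (standard error 0.39, adjusted p = 0.0471), a call lost without LG sample 1, 3 or 4 or without PL sample 2 or 3 (adjusted p from 0.0883 to 0.121). For HMGCS1, SCD and INSIG1 PL sample 2 was the highest PL sample, where for LBP and C3 it was the lowest.

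For fat uptake and triglyceride assembly, 2 of 19 genes rose and 4 fell as deposited, and 4 rose and 0 fell after scaling, so the direction of this list depended on the scaling. As deposited 0 rose without LG sample 1 or 4, and 1 fell without LG sample 4. FABP3, which carries fatty acids in the secretory cell, was the most abundant at 8664, 4193 and 3396 units in PL and 5699, 4529 and 4023 in LG and did not pass (0.08, standard error 0.28, adjusted p = 0.882). ACSL3, which activates fatty acids at lipid droplets, was at 758, 241 and 167 units in PL and 96.4, 104 and 89.9 in LG and rose by 1.69 (standard error 0.42, adjusted p = 0.0198), a call lost without LG sample 1 (adjusted p = 0.0578) or LG sample 4 (adjusted p = 0.0725). AGPAT3, an acyltransferase of glycerolipid synthesis, was at 10.9, 31.1 and 44.8 units in PL and 7.20, 8.43 and 9.97 in LG and rose by 1.50 (standard error 0.42, adjusted p = 0.0333), lost without LG sample 1, 3 or 4 or without PL sample 3 or 6 (adjusted p from 0.0745 to 0.0989). FABP4, the fatty acid carrier of adipocytes, was at 331, 370.3 and 234 units in PL and 635, 728 and 674 in LG and fell as deposited (-1.15, standard error 0.20, adjusted p = 0.00359) but not after scaling (-0.64, standard error 0.25, adjusted p = 0.14). LPL, which frees fatty acids from blood lipoproteins, was at 542, 166 and 57.6 units in PL and 278, 514 and 298 in LG and overlapped between stages (-1.01, standard error 0.78, adjusted p = 0.404).

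Among 11 genes of the milk fat globule, the 1 that rose under both scalings was CIDEA, a lipid droplet protein of the lactating gland, at 38.3, 38.5 and 3.33 units in PL and 0, 0 and 0.310 in LG (4.94, standard error 0.71, adjusted p = 0.00132). LG samples 1 and 3 were listed at 0, and PL sample 6 was well below the other PL samples. XDH, xanthine dehydrogenase, which lines the globule membrane, was at 1363, 908 and 768 units in PL and 451, 743 and 270.4 in LG and did not pass (1.13, standard error 0.51, adjusted p = 0.151). MFGE8, lactadherin, was at 2759, 992 and 396 units in PL and 1011, 1125 and 805 in LG and overlapped (0.08, standard error 0.51, adjusted p = 0.949). PLIN2, which coats lipid droplets, was at 491, 1089 and 1005 units in PL and 1347, 1230.1 and 1317 in LG and did not pass (-0.67, standard error 0.24, adjusted p = 0.0796).

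Of 21 genes of calcium, water and ion transport 2 rose under both scalings, ORAI1 and ATP2B2, and 0 to 3 rose with each sample left out. Among all genes 1.62% rose as deposited and 3.75% after scaling. ATP2B2, the pump that exports calcium into milk, was at 1.41, 6.24 and 2.89 units in PL and 0.516, 0.342 and 0.368 in LG and rose by 1.96 (standard error 0.46, adjusted p = 0.015), a call lost without LG sample 4 (adjusted p = 0.0543). ORAI1, a calcium entry channel, was at 181, 123 and 139 units in PL and 71.3, 94.2 and 75.6 in LG and rose by 0.87 (standard error 0.20, adjusted p = 0.0132), a call lost without LG sample 1 (adjusted p = 0.0531) or LG sample 4 (adjusted p = 0.0544). AQP3, a water and glycerol channel, was at 36.0, 26.7 and 24.5 units in PL and 66.4, 53.4 and 64.3 in LG and fell as deposited (-1.08, standard error 0.23, adjusted p = 0.00947) but did not pass after scaling (-0.58, standard error 0.27, adjusted p = 0.228). Of 16 amino acid transporters, SLC6A14 and SLC1A5 rose under both scalings. SLC6A14, a carrier of neutral and basic amino acids, was at 393, 206 and 211 units in PL and 29.9, 76.2 and 19.6 in LG and rose by 2.84 (standard error 0.79, adjusted p = 0.0316), a call lost without LG sample 1 or 4 or without PL sample 2 (adjusted p from 0.0907 to 0.125). SLC1A5, a glutamine carrier, was at 54.8, 34.6 and 39.1 units in PL and 20.9, 20.7 and 21.8 in LG and rose by 0.97 (standard error 0.22, adjusted p = 0.0135). SLC38A3, another glutamine carrier, was at 64.6, 49.4 and 55.6 units in PL and 136, 153 and 133 in LG and fell as deposited (-1.31, standard error 0.20, adjusted p = 0.00186), with -0.81 (standard error 0.24, adjusted p = 0.0552) after scaling.

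Genes of the endoplasmic reticulum and the secretory pathway rose in larger number. Of 42 measured, 13 rose and 1 fell as deposited, and 22 rose and 0 fell after scaling, with a median of 0.36 as deposited and 0.86 after scaling. Among all genes 1.62% rose and 13.1% fell as deposited, and 3.75% rose and 5.2% fell after scaling. The count of rises was 6 to 13 with each sample left out, with 8 without LG sample 1 or PL sample 2, 7 without LG sample 3 and 6 without LG sample 4, and 4 fell without PL sample 6. The chaperones led. HSPA5, the main chaperone of the reticulum, was at 381, 335 and 392 units in PL and 126, 145 and 146 in LG and rose by 1.41 (standard error 0.20, adjusted p = 0.00109). HYOU1, a larger chaperone of the same family group, was at 53.4, 47.2 and 50.7 units in PL and 21.2, 18.2 and 21.2 in LG and rose by 1.30 (standard error 0.19, adjusted p = 0.00122). DNAJB9, a partner of HSPA5, was at 46.9, 27.3 and 45.3 units in PL and 11.7, 14.2 and 15.3 in LG and rose by 1.47 (standard error 0.25, adjusted p = 0.00256). MANF, a small secreted protein of the reticulum, was at 120.1, 96.0 and 109 units in PL and 42.3, 45.8 and 50.6 in LG and rose by 1.22 (standard error 0.20, adjusted p = 0.00235). For all 4, every PL sample lay above every LG sample, PL sample 2 included. The PL samples lay close together except for DNAJB9, where PL sample 3 was well below the others.

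Beside the chaperones, the disulphide isomerases PDIA4 (0.62) and PDIA6 (0.44), the translocon subunit SEC61B (0.37) and the coat protein SEC23B (0.69) rose as deposited. The calls of PDIA6, SEC61B and SEC23B were lost without LG sample 1, 3 or 4 or without PL sample 3 or 6 (adjusted p from 0.061 to 0.0952), without LG sample 1, 3 or 4 or without PL sample 2 or 6 (adjusted p from 0.0615 to 0.116) and without LG sample 1, 3 or 4 or without PL sample 2 (adjusted p from 0.0613 to 0.0889), respectively. SSR4, a translocon-associated subunit, was at 459, 461 and 508 units in PL and 678, 581 and 622 in LG and was the member that fell (-0.40, standard error 0.09, adjusted p = 0.0163), lost without LG sample 1 (adjusted p = 0.065) or LG sample 4 (adjusted p = 0.0504), and after scaling its value was 0.11 (standard error 0.14, adjusted p = 0.701). XBP1, the factor that drives many chaperone genes, was the most abundant member, at 381, 387 and 725 units in PL and 677, 1205 and 766 in LG, and did not pass (-0.85, standard error 0.35, adjusted p = 0.117). ATF4 (0.15), ATF6 (-0.72) and DDIT3 (1.14), regulators of the stress response of the reticulum, did not pass either.

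Few genes of prolactin, steroid and growth factor signalling passed under both scalings. Of 34 measured, 1 rose and 8 fell as deposited, and 5 rose and 2 fell after scaling, against 1.62% and 13.1% of all genes as deposited and 3.75% and 5.2% after scaling (median -0.71 as deposited and -0.28 after scaling). The count of falls was 1 without LG sample 1, 3 without LG sample 3 and 2 without LG sample 4. It was 2 without PL sample 2, 9 without PL sample 3 and 7 without PL sample 6, and 5 rose without PL sample 2. EGF, epidermal growth factor, was at 2.84, 11.0 and 7.00 units in PL and 0.00821, 0.477 and 0 in LG and rose by 3.39 (standard error 0.48, adjusted p = 0.00117). FOXA1, a partner of the oestrogen receptor, was at 0.161, 0.200 and 0.361 units in PL and 1.07, 1.26 and 2.01 in LG and fell under both scalings (-1.37, standard error 0.37, adjusted p = 0.0277 as deposited, lost without LG sample 3 or 4 or without PL sample 2 with adjusted p from 0.0575 to 0.108). NRG1, a ligand of the ERBB receptors, was at 0, 0 and 0.512 units in PL and 1.21, 1.37 and 0.867 in LG and fell under both (-1.37, standard error 0.33, adjusted p = 0.0173 as deposited, lost without LG sample 1 with adjusted p = 0.0523 or LG sample 3 with adjusted p = 0.0555). TNFSF11, the RANK ligand that relays progesterone to alveolar growth, was at 1.12, 1.67 and 2.34 units in PL and 5.71, 5.54 and 11.4 in LG and fell as deposited (-1.83, standard error 0.53, adjusted p = 0.0386), lost without LG sample 1, 3 or 4 or without PL sample 2 or 3 (adjusted p from 0.0627 to 0.147), with -1.43 (standard error 0.47, adjusted p = 0.0867) after scaling. ELF5, the factor that specifies alveolar cells, was at 66.4, 197 and 267 units in PL and 166, 169 and 158 in LG and did not pass (-0.12, standard error 0.66, adjusted p = 0.942), nor did STAT5B, which carries the prolactin signal, at 48.2, 48.8 and 79.9 units in PL and 146, 83.7 and 165 in LG (-1.13, standard error 0.37, adjusted p = 0.0603). SOCS2, which damps that signal, was at 8.55, 10.1 and 9.33 units in PL and 17.3, 16.5 and 13.5 in LG and fell as deposited (-0.72, standard error 0.18, adjusted p = 0.0215), lost without LG sample 1 (adjusted p = 0.0732) or LG sample 3 (adjusted p = 0.0627) and after scaling. OXTR, the oxytocin receptor, was at 12.8, 36.4 and 30.8 units in PL and 18.8, 17.6 and 20.0 in LG and did not pass as deposited. It passed after scaling (0.86, standard error 0.22, adjusted p = 0.0317) and, as deposited, without PL sample 2 (0.82, adjusted p = 0.0406).

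Genes of cell division fell together. Of 50 measured, 39 fell and 0 rose as deposited, 33 fell and 0 rose after scaling, and 36 to 38 fell with each sample left out, against 13.1% and 5.2% of all genes. The median log2 fold change was -1.92 as deposited and -1.51 after scaling. Summed, the list stood at 165, 205 and 171 units in PL and 608, 603 and 749 in LG, with no overlap and a ratio of the LG to the PL mean of 3.62. In bulk tissue, fewer cells of a type and less RNA per cell cannot be told apart.

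TOP2A, the topoisomerase that untangles replicated chromosomes, was at 2.98, 2.41 and 1.18 units in PL and 13.3, 15.7 and 16.3 in LG and fell by 2.60 (standard error 0.30, adjusted p = 0.000371). CCNB2, a mitotic cyclin, was at 1.48, 1.18 and 0.580 units in PL and 6.54, 6.61 and 8.07 in LG (-2.30, standard error 0.25, adjusted p = 0.000263). KIF11, a motor of the mitotic spindle, was at 1.49, 1.37 and 0.687 units in PL and 6.81, 6.94 and 9.10 in LG (-2.30, standard error 0.26, adjusted p = 0.000352). STMN1, which regulates microtubules and was the most abundant of the list, was at 20.2, 35.2 and 22.0 units in PL and 82.5, 92.9 and 134 in LG (-1.99, standard error 0.29, adjusted p = 0.00129). In each of the 4 genes every PL sample lay below every LG sample, PL sample 2 included. Of the 6 subunits of the replicative helicase, MCM2 (-2.00), MCM3 (-2.00) and MCM7 (-1.30) fell under both scalings. MCM4 (-3.01) and MCM6 (-1.45) fell as deposited but did not pass after scaling (adjusted p = 0.0581 and 0.0821), and the call of MCM4 was lost without LG sample 1, 3 or 4 or without PL sample 2 or 3 (adjusted p from 0.0613 to 0.14). MCM5 was listed at 0 in each LG sample and at 1.41, 0 and 1.13 units in PL, and did not pass. RRM2 (-1.84) and TYMS (-1.97), which supply nucleotides, fell under both scalings. UNG, which removes uracil from DNA, was listed at 0 in each PL sample but at 19.0, 10.9 and 21.5 units in LG. The 11 members that did not pass included MKI67, the gene of the Ki-67 antigen, at 1.20, 0.744 and 0.240 units in PL and 0.476, 0.807 and 0.592 in LG (0.06, standard error 0.49, adjusted p = 0.969), and PLK1 (-0.73, standard error 0.31, adjusted p = 0.129).

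**Figure D2:**
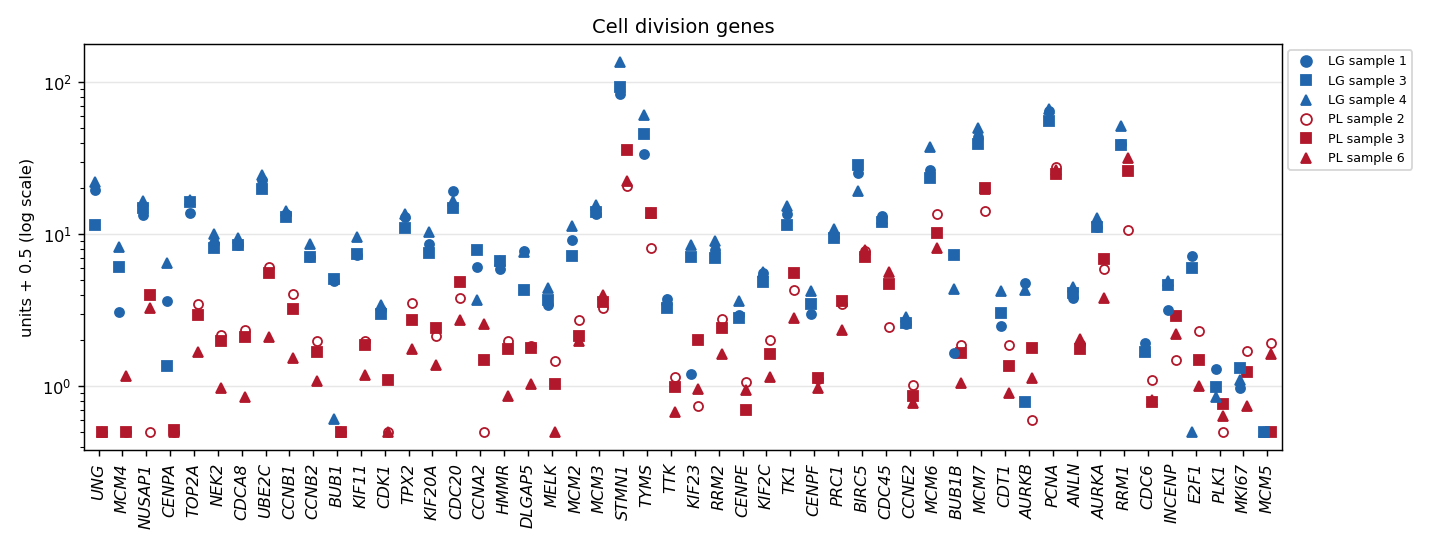
Units + 0.5 on a log axis for the 50 cell division genes, ordered by log2 fold change, one symbol per sample, LG in blue and PL in red with PL sample 2 open. PL lies below LG without overlap for 44 genes, against 30.5% of all genes, and MKI67 and MCM5 at the right end show no such gap.

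Transcripts for the machinery of protein synthesis took a smaller share of units in PL, and protein synthesis itself was not measured. Of 78 genes of cytosolic ribosomal proteins, 68 fell and 0 rose as deposited and 59 fell and 0 rose after scaling, and 60 to 68 fell with each sample left out. Among all genes 13.1% fell and 1.62% rose as deposited, and 5.2% fell and 3.75% rose after scaling. The median log2 fold change was -1.21 as deposited and -0.70 after scaling. Summed, they took 5.76, 9.43 and 11.4% of all units in PL and 20.2, 18.7 and 20.4% in LG, with PL sample 2 lowest. RPLP1, an acidic stalk protein and the most abundant, was at 2464, 4033 and 5699.6 units in PL and 8415, 8098 and 8939 in LG (-1.14, standard error 0.23, adjusted p = 0.00771). RPSA was at 914, 1286 and 1379 units in PL and 2653, 2484 and 2631 in LG and fell by 1.14 (standard error 0.14, adjusted p = 0.000632) as deposited, with -0.64 (standard error 0.08, adjusted p = 0.000696) after scaling. RPL24 was at 593, 925 and 1100.5 units in PL and 2330.4, 2174 and 2376 in LG and fell by 1.44 (standard error 0.19, adjusted p = 0.000828). Ribosomal protein genes have many near-identical copies in the genome, so reads could have been split between copies.

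Among 63 genes matched as translation factors or their regulators, 25 fell and 0 rose as deposited and 11 fell and 3 rose after scaling (median -0.74 as deposited and -0.24 after scaling), and 15 to 29 fell with each sample left out, with 16 without LG sample 1 and 15 without LG sample 4. The shares over all genes were 13.1% falling and 1.62% rising as deposited, and 5.2% and 3.75% after scaling. EEF1B2, an elongation factor subunit, was at 379.6, 733 and 1061 units in PL and 2403, 2234 and 2319.8 in LG and fell by 1.80 (standard error 0.28, adjusted p = 0.00195). EIF3I, a subunit of an initiation factor, was at 67.4, 82.8 and 78.1 units in PL and 178, 159 and 188 in LG and fell by 1.20 (standard error 0.14, adjusted p = 0.00038). EEF1A1, the most abundant, was at 2417, 5716 and 3122 units in PL and 12622, 10084 and 4577 in LG and fell as deposited (-1.25, standard error 0.39, adjusted p = 0.0488), lost without LG sample 1 or 3 or without PL sample 2 or 6 (adjusted p from 0.0986 to 0.162) and after scaling (-0.75, standard error 0.40, adjusted p = 0.289). The 3 that rose after scaling were EIF4EBP1, EIF2AK3 and EEF2K, which are known as brakes on translation. Their share of the list was near the 3.75% of all genes, so no reading of the list is drawn from them. EIF2AK3, a kinase of the reticulum stress response, was at 10.4, 9.97 and 13.0 units in PL and 7.35, 7.41 and 7.76 in LG (1.01, standard error 0.17, adjusted p = 0.00392 after scaling).

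Splicing factors and the respiratory chain depended more on the scaling. They stand beside all genes, of which 13.1% fell and 1.62% rose as deposited and 5.2% fell and 3.75% rose after scaling. Of 67 splicing factor genes 26 fell and 0 rose as deposited and 10 fell and 1 rose after scaling, and 14 fell as deposited without LG sample 4. HNRNPDL, an RNA-binding protein, was at 32.9, 55.0 and 51.5 units in PL and 169, 161 and 173 in LG and fell under both (-1.87, standard error 0.23, adjusted p = 0.000563 as deposited). Of 67 nuclear genes of the respiratory chain 38 fell and 0 rose as deposited, but 8 fell and 1 rose after scaling, with medians of -0.63 as deposited and -0.14 after scaling, close to those of all genes. NDUFA12, a subunit of complex I, was at 39.4, 63.0 and 61.8 units in PL and 119, 113 and 128 in LG and fell under both (-1.15, standard error 0.17, adjusted p = 0.00159 as deposited). Of the 13 protein genes of the mitochondrial genome 0 rose and 1 fell as deposited, 2 rose and 0 fell after scaling, and 6 fell as deposited without PL sample 6. COX1, its most abundant gene, was at 13420.4, 15934 and 16364 units in PL and 15619, 15245 and 14502 in LG and did not pass as deposited. It rose after scaling (0.51, standard error 0.12, adjusted p = 0.0204) but fell with quantile normalization (-0.80, adjusted p = 0.0331), so its direction depended on the scaling.

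**Figure D3:**
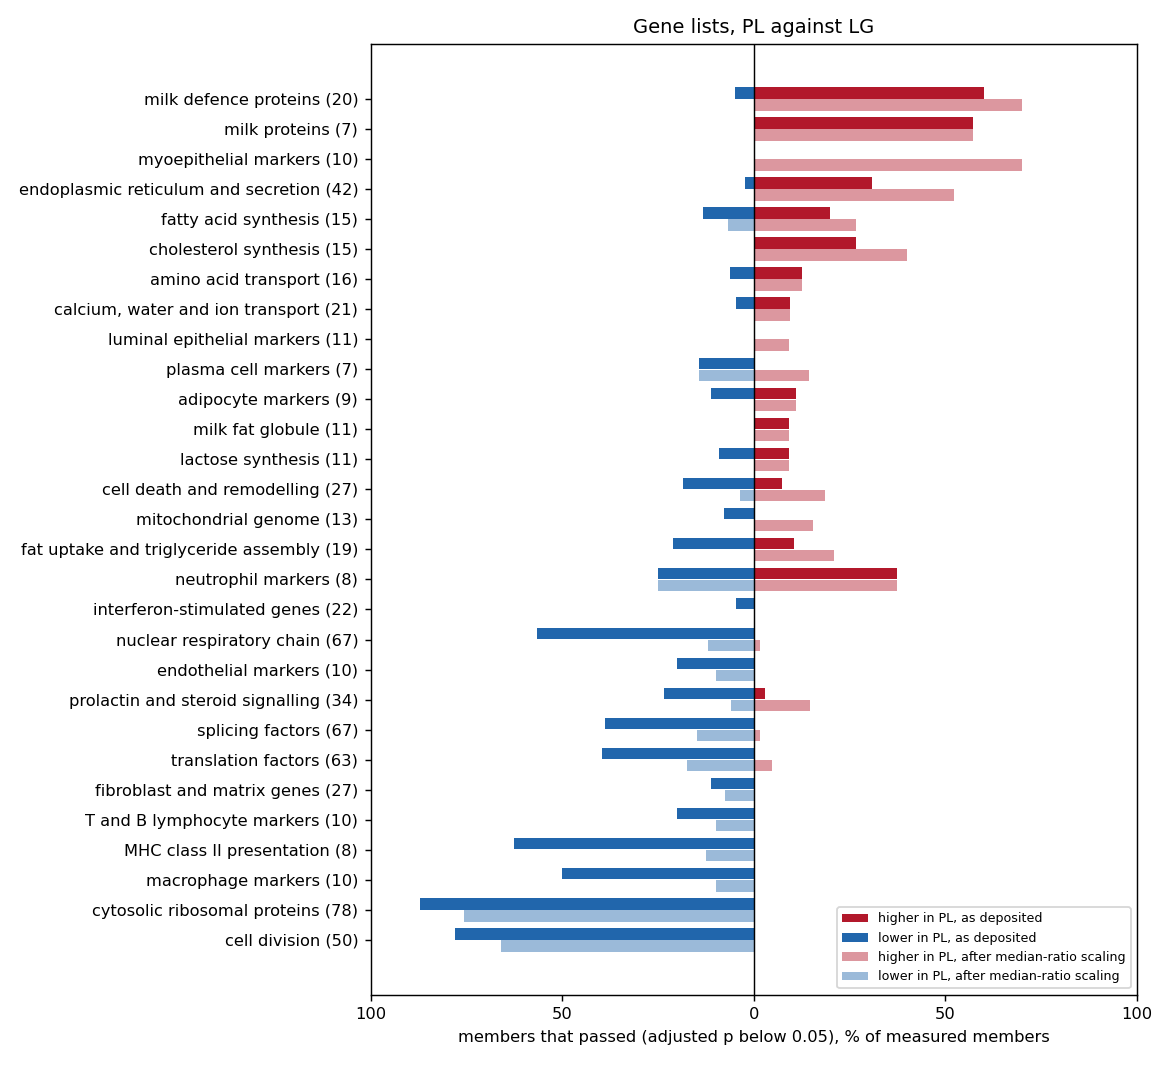
Percent of the measured members of each gene list (number in brackets) that passed at a limma adjusted p below 0.05, higher in PL to the right and lower in PL to the left, as deposited in full colour and after median-ratio scaling in pale colour. Milk, milk defence and secretory pathway genes lie to the right and cell division and ribosomal protein genes to the left under both scalings, while the respiratory chain shrinks from 38 to 8 falls of 67.

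**Figure D4:**
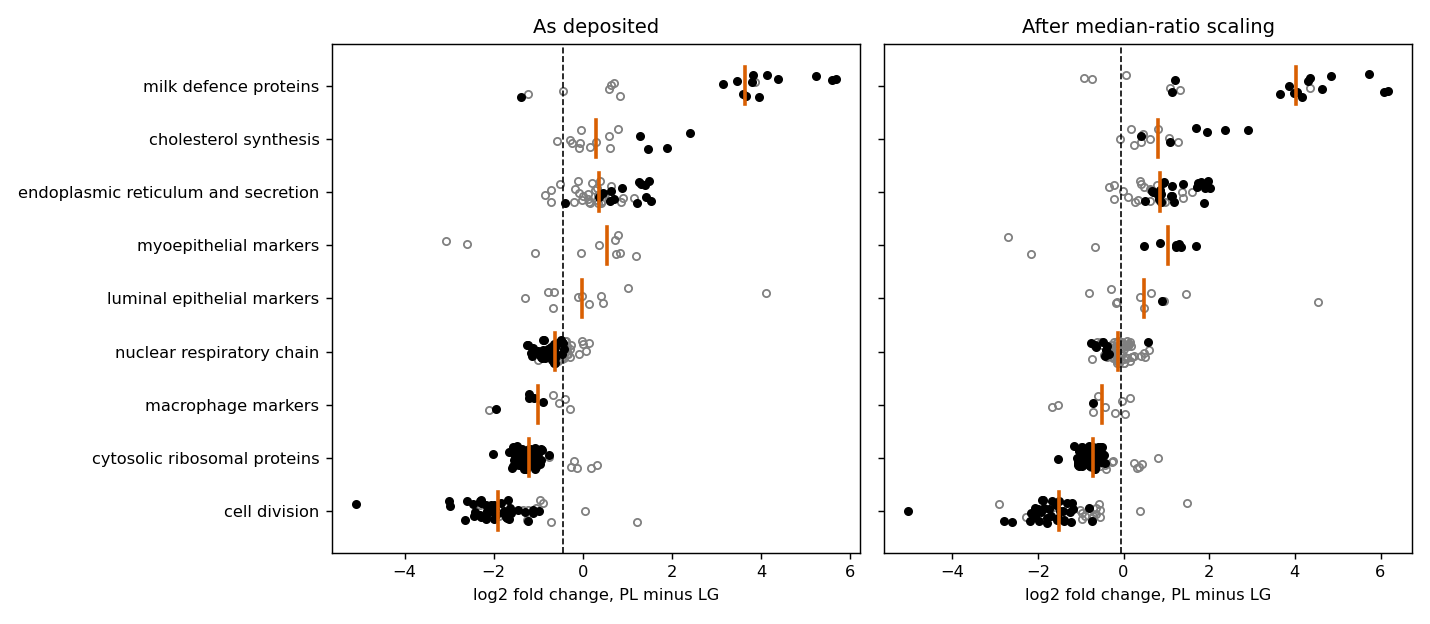
Log2 fold change (PL minus LG) of each member of 9 gene lists, as deposited and after median-ratio scaling, with members that passed in black, others open, the list median as an orange bar and the median of all genes as a dashed line. Scaling moves the median of all genes from -0.45 to -0.06 and leaves the cell division list at a median of -1.51 and the milk defence list at 4.02.

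The labelled tissue was checked against markers of its cell types. The luminal epithelial markers EPCAM, at 531, 607 and 633 units in PL and 497, 608 and 514 in LG, and CDH1, at 65.5, 174 and 175 units in PL and 188, 206 and 210.1 in LG, were present in every sample, and of 11 luminal markers 0 passed as deposited and 1, CLDN7, rose after scaling. As deposited 3 rose and 1 fell without PL sample 2. Over all 26004 genes and loci, 1.62% rose and 13.1% fell as deposited, and 3.75% rose and 5.2% fell after scaling. Without PL sample 2, 831 of them rose and 2387 fell as deposited. The summed level of the luminal markers was 971 to 2154 units in PL, lowest in sample 2, and 1610 to 1884 in LG. KRT7, a luminal keratin, was listed at 0 in LG samples 1 and 4 and at 107 units in LG sample 3.

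Markers of myoepithelial cells, which contract to eject milk, gave a result that depended both on the scaling and on PL sample 2. Of 10 markers 0 passed as deposited, 7 rose after scaling, and 6 rose as deposited without PL sample 2. Over all 26004 genes and loci, 1.62% rose as deposited and 3.75% after scaling, and 831 rose as deposited without PL sample 2. Summed, the 10 markers were at 1386, 3739 and 3427 units in PL and 2036, 1845 and 2279.5 in LG. KRT5, a basal keratin, was at 57.3, 273 and 305 units in PL and 46.1, 78.0 and 109 in LG and rose by 1.97 (adjusted p = 0.00475) without PL sample 2, against 1.19 (standard error 0.54, adjusted p = 0.148) with it and 1.70 (standard error 0.43, adjusted p = 0.0305) after scaling. CNN1, calponin, was at 124, 357 and 276 units in PL and 135, 113 and 141 in LG, with 1.28 (adjusted p = 0.000715) without PL sample 2 and 0.83 (standard error 0.30, adjusted p = 0.0772) with it, and 1.33 (standard error 0.20, adjusted p = 0.00166) after scaling.

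Markers of stromal and blood cells are set against all genes, of which 13.1% fell and 1.62% rose as deposited and 5.2% fell and 3.75% rose after scaling. Adipocyte markers summed to 334 to 467 units in PL and 703 to 789 in LG, most of it FABP4, and 1 of 9 rose and 1 fell as deposited. The one that rose was LEP, the hormone leptin, at 1.56, 15.8 and 14.6 units in PL and 0.337, 0.455 and 0.452 in LG (3.13, standard error 0.68, adjusted p = 0.0104). Of 27 fibroblast and matrix genes 3 fell as deposited and 2 after scaling, and 9 fell without PL sample 3. COL4A1, a basement membrane collagen, was at 126, 164 and 133 units in PL and 281, 285 and 339 in LG and fell under both scalings (-1.10, standard error 0.12, adjusted p = 0.000365 as deposited). Of 10 endothelial markers 2 fell as deposited and 1 after scaling. KDR, the main VEGF receptor, was at 6.10, 13.8 and 7.18 units in PL and 18.2, 23.4 and 25.4 in LG and fell under both (-1.34, standard error 0.26, adjusted p = 0.0059 as deposited).

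Macrophage markers summed to 155 to 252 units in PL and 350 to 565 in LG, and 5 of 10 fell as deposited and 1 after scaling. That one was C1QA, a complement subunit made by macrophages, at 34.0, 50.2 and 55.5 units in PL and 103, 84.8 and 140.2 in LG (-1.22, standard error 0.24, adjusted p = 0.00662 as deposited and -0.72 with standard error 0.15, adjusted p = 0.0122 after scaling). The count as deposited was 1 without LG sample 1 or 4, 3 without LG sample 3 and 2 without PL sample 2. Of 8 genes of MHC class II presentation 5 fell as deposited and 1 after scaling, SLA-DRA at 108, 162 and 161 units in PL and 271, 251 and 305 in LG (-0.45, standard error 0.09, adjusted p = 0.00874 after scaling). The count as deposited was 3 without LG sample 1 and 2 without LG sample 4. Of 10 lymphocyte markers 2 fell as deposited and 1 after scaling, against 0 without LG sample 4 and 5 without PL sample 6. LCK, a T cell kinase, was at 0.865, 1.63 and 1.79 units in PL and 3.07, 3.43 and 3.77 in LG and fell under both (-1.05, standard error 0.25, adjusted p = 0.0163 as deposited, lost without LG sample 4 with adjusted p = 0.0644). JCHAIN, which joins immunoglobulin A made by plasma cells, was at 891, 842 and 709.6 units in PL and 969, 654 and 872 in LG and overlapped between stages (-0.02, standard error 0.47, adjusted p = 1). PRDM1, another plasma cell marker, was at 0.762, 1.26 and 1.56 units in PL and 3.58, 5.24 and 6.14 in LG and fell under both (-1.70, standard error 0.38, adjusted p = 0.0125 as deposited, lost without LG sample 4 with adjusted p = 0.0592). Of 22 interferon-stimulated genes 1 fell as deposited, IFI6 at 67.7, 256 and 91.9 units in PL and 708, 315 and 704 in LG (-2.20, standard error 0.59, adjusted p = 0.028), lost without LG sample 1 or 4 or without PL sample 2 or 6 (adjusted p from 0.0646 to 0.105) and after scaling, whereas 6 fell without PL sample 3. The part that these cell types played in the other results was not tested.

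Genes of cell death and remodelling, known for their rise at weaning, passed in both directions. Of 27 measured 2 rose and 5 fell as deposited, and 5 rose and 1 fell after scaling, against 1.62% and 13.1% of all genes as deposited and 3.75% and 5.2% after scaling. The rises as deposited were 5 without PL sample 2 and the falls 2 without LG sample 1. BCL2, which holds back apoptosis, was at 0.429, 1.53 and 0.994 units in PL and 6.14, 2.93 and 3.52 in LG and fell under both (-1.67, standard error 0.37, adjusted p = 0.0116 as deposited, lost without LG sample 1 with adjusted p = 0.0517). TGFB2, a growth factor of the TGF-beta family, was at 4.64, 7.81 and 8.16 units in PL and 2.33, 2.24 and 2.79 in LG and rose under both (1.29, standard error 0.26, adjusted p = 0.00746 as deposited). TGFB3, the family member that marks early involution, was at 8.91, 12.6 and 7.34 units in PL and 23.5, 22.4 and 24.7 in LG and fell as deposited (-1.28, standard error 0.24, adjusted p = 0.00472), with -0.79 (standard error 0.25, adjusted p = 0.0701) after scaling.

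Outside the lists, further genes were among the largest rises under both scalings without overlap. F3, tissue factor, which starts blood clotting, was listed at 0 in each LG sample but at 56.4, 106 and 100.1 units in PL. ZG16B, a secreted lectin-like protein, was listed at 0 in each LG sample but at 25.2, 1.72 and 121 units in PL. LRG1, an acute-phase glycoprotein, was at 28.8, 150.3 and 244 units in PL and 3.37, 2.97 and 2.83 in LG and rose by 4.85 (standard error 0.59, adjusted p = 0.000539). AZGP1, zinc-alpha-2-glycoprotein, was at 37.3, 5.84 and 7.30 units in PL and 0, 0 and 0.306 in LG and rose by 4.39 (standard error 1.19, adjusted p = 0.0287), lost without LG sample 1, 3 or 4 or without PL sample 2 (adjusted p from 0.0733 to 0.102). MT-2B, a metallothionein, was at 25.7, 588 and 1299.5 units in PL and 18.9, 3.66 and 15.1 in LG, where PL sample 2 was close to the LG samples (4.65, standard error 1.19, adjusted p = 0.022, lost without LG sample 3 or 4 or without PL sample 3 or 6 with adjusted p from 0.0571 to 0.0795).

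The largest falls included genes listed at 0 in PL. PABPC1, the main protein that binds the poly(A) tail of mRNAs, was listed at 0 in each PL sample but at 1163, 1051 and 1309 units in LG. UXT was listed at 0 in each PL sample but at 12.5, 12.1 and 25.5 units in LG. SLC2A4RG was listed at 0 in each PL sample but at 11.5, 14.5 and 17.5 units in LG, and SAP130 likewise at 0 in PL and at 12.1, 10.7 and 12.5 units in LG. Including UNG these were 5 reference genes, and F3 was the 1 gene listed at 0 in all LG samples with at least 10 units in every PL sample. PABPC1 is used by every cell, so a listed 0 cannot be read as absence. The table ties none of the assembled transcripts to a gene name, and it was not tested whether reads of such genes are listed under assembled transcripts.

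Among the falls above 0 in some PL sample, C3H2orf40 was at 5.03, 10.4 and 7.28 units in PL and 147, 112 and 453 in LG and fell by 4.66 (standard error 0.69, adjusted p = 0.00158). MANBAL was at 0, 0.261 and 0.463 units in PL and 52.7, 51.6 and 10.5 in LG (-5.45, standard error 1.11, adjusted p = 0.00774), and TMTC2 at 0.595, 0 and 0 units in PL and 21.3, 18.1 and 22.4 in LG (-5.02, standard error 0.39, adjusted p = 4.82e-05). BPHL, a serine hydrolase, was at 0, 6.25 and 0 units in PL and 19.2, 32.2 and 38.6 in LG (-4.62, standard error 0.79, adjusted p = 0.00291), and ZNF32, a zinc finger protein, at 0, 1.30 and 0 units in PL and 10.2, 18.2 and 20.2 in LG (-4.39, standard error 0.42, adjusted p = 0.00014). DNMT3B, which sets new DNA methylation, was at 0, 0.809 and 0 units in PL and 12.8, 7.83 and 14.2 in LG and fell by 4.10 (standard error 0.51, adjusted p = 0.000632). COL9A1, a collagen chain, was at 0.0540, 0.227 and 1.92 units in PL and 10.8, 59.3 and 7.43 in LG, highest in LG sample 3 (-4.14, standard error 1.02, adjusted p = 0.0188, lost without LG sample 3 with adjusted p = 0.0709 or PL sample 2 with adjusted p = 0.0641).

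Single transcripts did not always follow their gene. Of the 77 reference transcripts called higher as deposited, the gene sum rose for 62, did not pass for 10 and fell for 5. Of the 319 called lower, the gene sum fell for 242, did not pass for 76 and rose for 1. RPS29, a ribosomal protein gene, held both directions. Its transcript XM_021101312.1 was at 89.5, 128 and 150.2 units in PL and 18.2, 18.1 and 12.1 in LG and rose by 2.88 (standard error 0.65, adjusted p = 0.0369), lost when any of the 6 samples was left out. The sum over its transcripts was at 338, 529.7 and 594 units in PL and 2014, 1662 and 2138 in LG and fell by 2.02 (standard error 0.23, adjusted p = 0.000331). MGAT1, which starts complex sugar chains on proteins, had a transcript, NM_001078668.1, at 2.32, 18.2 and 13.5 units in PL and 0.964, 0.898 and 1.05 in LG (2.62, standard error 0.62, adjusted p = 0.048, lost without LG sample 1, 3 or 4 or without PL sample 3 or 6 with adjusted p from 0.113 to 0.131), whereas its gene sum of 24.3, 41.4 and 25.8 units in PL and 32.9, 38.5 and 35.4 in LG did not pass.

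ALDOA, a glycolytic aldolase, had the transcript XM_021087999.1 listed at 0 in each PL sample but at 27.9, 111 and 81.7 units in LG, a call lost without LG sample 1, 3 or 4 or without PL sample 2, 3 or 6 (adjusted p from 0.0668 to 0.123). Its gene sum was 133, 199 and 115 units in PL and 201, 179 and 203 in LG (log2 fold change -0.42, adjusted p = 0.137), and the stages overlapped. GNAS, a subunit of a G protein, had XM_021077156.1 at 0, 0.379 and 0 units in PL and 44.6, 33.8 and 61.1 in LG (-6.24, standard error 0.59, adjusted p = 0.000289). The GNAS sum was 462, 209 and 72.6 units in PL and 511, 724 and 389 in LG and did not pass. CTDSPL, a phosphatase, had XM_003358363.4 at 0 in all PL samples and at 12.3, 15.2 and 8.71 units in LG, a call lost without LG sample 1, 3 or 4 or without PL sample 2, 3 or 6 (adjusted p from 0.0678 to 0.108). For EIF2S3, an initiation factor subunit, XM_021080522.1 was listed at 0 in each PL sample but at 67.7, 129 and 56.0 units in LG, while the gene sum was 46.3 units in PL sample 2 and 0 in both other PL samples. That call was lost without LG sample 1, 3 or 4 (adjusted p from 0.0562 to 0.0643).

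**Figure D5:**
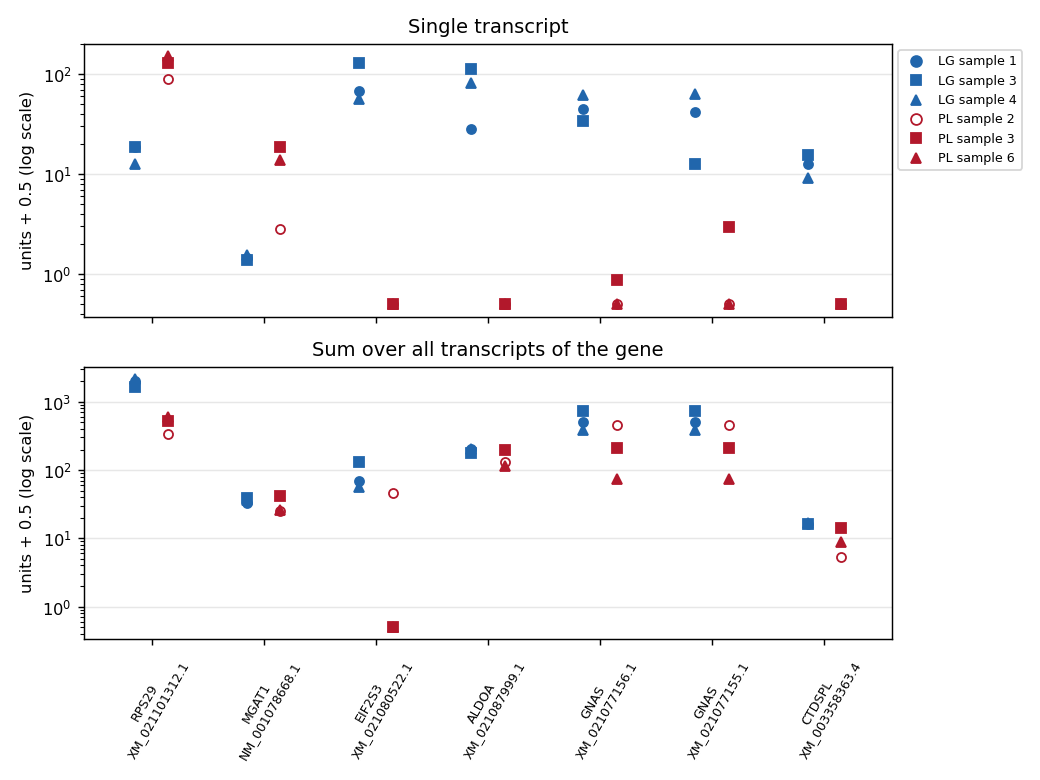
Units + 0.5 on a log axis for the 7 named reference transcripts whose gene sum did not pass in the same direction (top) and the sum over all transcripts of the same gene (bottom), LG in blue and PL in red with PL sample 2 open. The ALDOA transcript is at 0 in PL while the ALDOA sum lies between 115 and 203 units in both stages, and the RPS29 transcript rises while the RPS29 sum falls.

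Assembled transcripts, which have no gene name or position in the table, made up 89 of the 166 higher and 189 of the 508 lower calls. They held 17.4 to 21.8% of all units in PL and 14.6 to 15.5% in LG. The most abundant locus, MSTRG.10841, was at 69638, 39514 and 36778 units in PL and 26974, 25960.3 and 12569.7 in LG and rose by 1.17 (standard error 0.33, adjusted p = 0.0333). MSTRG.2267, a locus of 6 transcripts, was at 2896, 7702 and 12694 units in PL and 53.3, 94.4 and 19.3 in LG and rose by 7.14 (standard error 0.63, adjusted p = 9.75e-05), and its transcript MSTRG.2267.6 was at 66.2, 1557 and 3592 units in PL and 0.934, 1.25 and 0.425 in LG. MSTRG.10840 was at 29106, 12066 and 0.601 units in PL and 0.616, 0.958 and 0.365 in LG, so that PL sample 6 matched the LG samples and both other PL samples were far above them, and it did not pass (9.34, standard error 3.86, adjusted p = 0.118). In the other direction, MSTRG.4534.1 was listed at 0 in each PL sample but at 173, 191 and 159 units in LG, a call lost without LG sample 1, 3 or 4 (adjusted p from 0.0537 to 0.06), and MSTRG.10303.4 was at 0.397, 5.71 and 0 units in PL and 54.0, 166 and 201 in LG (-6.44, standard error 0.91, adjusted p = 0.00366).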

How the data were processed

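Total RNA of mammary parenchyma was sequenced by the authors as TruSeq libraries. Per the submitters' processing notes and the study's methods, reads were checked with FastQC, trimmed with Trimmomatic and aligned to Sscrofa11.1 with HISAT2, and transcripts were assembled and quantified with StringTie. The deposited table holds values the authors call FPKM, but each column added up to between 997480 and 1002643, as TPM does, and they are treated as TPM. Transcripts below 0.5 in all stages had been dropped by the authors, and RUVs is named for unwanted variation without saying whether this table was corrected. Such a closed total ties the values of a sample to each other, and no interval could be drawn from read counts.

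Values were tested as log2(value + 0.5) with limma 3.58.1 in R 4.3.3, with a trended prior variance and Benjamini-Hochberg adjustment over all features, in a single fit of 15 samples from 5 stages, 3 counted a stage. Replicates are separate sows. The other 3 samples of each stage were left out for their near identity to a mean. Transcripts were summed by gene through a RefSeq gene table of Sscrofa11.1 (32699 of 32726 reference transcripts matched, 27 did not), and 11061 assembled loci were kept under their own names. Median-ratio factors came from 2698 transcripts of at least 10 units in every counted sample. Tables were made with Python 3.11.15, pandas 2.3.3 and numpy 2.4.6, and drawn with matplotlib 3.10.9. No column of the table was left unmapped.

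Members and lists were chosen with earlier results of these data known. The 29 lists hold 740 names, of which 708 were measured. Genes were named by rule: the 12 rises and 12 falls largest in size among reference genes that passed without overlap under both scalings at a mean of at least 10 units in the higher stage, every milk protein, and of every other list the most abundant member and up to 4 of lowest p. Transcripts were named likewise, 5 rises and 5 falls among reference transcripts whose gene sum did not pass in that direction, and 3 and 3 among assembled ones. A total of 38 further list members, among them LPO, HP, CD14, C3, LCN2, LYZ, LTF, FASN, FOXA1, STAT5B, MCM2 and MKI67, were named for their role after their values were seen.

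The scripts were tested on simulated data of all features. Changes for PL against LG were planted only in features with a mean above about 10 units. Recovery was therefore not examined for features of low value, and the recoveries given here do not apply to calls on them. Recovery was also not examined at the spread of PL alone. Of 100 transcripts moved by 2.5 on the log2 scale 70 were recovered, and of 100 moved by 4, 80, with 10 unmoved transcripts called. Of 100 genes each, 79 and 97 were recovered, with 7 unmoved genes called. Alternatives were quantile normalization, scaling without the 20 highest transcripts, pseudocounts of 0.1 and 1, a minimum mean of 1 unit, PL and LG alone, all samples, near-identical samples counted once, each sample left out, a replicate block and, for genes, the highest transcript in place of the sum.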

Additional observations from a re-analysis of the deposited data

How the results depend on the processing

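The paper gives the depth of each library but the table gives no reads for a value. The spread of 3 samples a stage therefore sets the precision, and low values rest on an unknown number of reads. PL and LG were sampled once each, from different sows, so stage and any unlabelled batch cannot be told apart. The closed total, PL sample 2 and the handling of near-identical samples moved the counts, and the cause was not tested.

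As deposited, 166 transcripts were higher and 508 lower in PL, and 421 genes rose and 3413 fell. Median-ratio scaling gave 268 and 303 transcripts and 976 and 1351 genes. The same scaling without PL sample 2 gave 554 and 287 transcripts and 1508 and 1369 genes. Quantile normalization gave 327 and 281 transcripts and 1016 and 1389 genes, and scaling without the 20 highest transcripts 252 and 370 transcripts and 794 and 1488 genes. PL and LG alone, with the spread set by these samples only, gave 16 and 70 transcripts and 88 and 574 genes. Why these counts were lower was not tested. All 6 samples a stage gave 1241 and 2988 transcripts and 2349 and 11422 genes, and near-identical samples counted once 589 and 1823 transcripts and 1198 and 8143 genes, both with more samples of little spread. A pseudocount of 0.1 gave 793 lower transcripts, and the highest transcript in place of the sum 1901 falling genes. With each sample left out, 85 to 398 transcripts were higher and 298 to 791 lower, and 209 to 831 genes rose and 1484 to 4260 fell. The lowest counts of higher transcripts, rising genes and falling genes came without LG sample 4. Pseudocount 1 and a minimum mean of 1 unit kept each count within 1.5 times.

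With the replicate number as a replicate block, 14 transcripts were higher and 47 lower, and 102 genes rose and 504 fell. The numbers do not pair the samples: PL and LG come from different sows and share only number 3 among the counted samples.

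Of 138 named results that passed as deposited, 83 passed with each sample left out and 55 lost the call without at least 1, most often without LG sample 4 (49). Under the alternatives 3 of the 138 turned sign, namely BCL2L1, COX3 and SSR4. All others that turned sign did not pass as deposited. ACTA2 passed in the opposite direction with median-ratio scaling, with the same scaling without PL sample 2 and with quantile normalization, CTSB with the second and COX1 with the last of these. Log2 fold changes of opposite sign to the deposited ones were as follows. With median-ratio scaling they were PAEP 0.34, HK1 0.14, SLC2A1 0.11, ELF5 0.39, ACTA2 0.47, PECAM1 0.084, JCHAIN 0.48, IRF4 0.12, CTSB 0.32, COX3 0.11, ND3 0.013, CYTB 0.22, COX2 0.22 and SSR4 0.11. With this scaling and without PL sample 2 they were PAEP 0.15, HK1 0.20, FABP3 -0.0024, MFGE8 -0.32, PLIN2 0.0038, ELF5 0.79, CDH1 0.11, ACTA2 0.65, JCHAIN 0.23, CTSB 1.09, COX3 0.066, ND3 0.031, CYTB 0.12, COX2 0.15, CSF3R 0.064 and MKI67 -0.065. With quantile normalization they were CSN2 -0.15, HK1 0.085, SLC2A1 0.053, ELF5 0.23, ACTA2 0.83, JCHAIN 0.64, IRF4 0.16, CTSB 0.20, COX1 -0.80 and SSR4 0.082. With scaling without the 20 highest transcripts they were PAEP 0.27, HK1 0.074, SLC2A1 0.049, ELF5 0.32, ACTA2 0.40, PECAM1 0.019, JCHAIN 0.42, IRF4 0.061, CTSB 0.25, COX3 0.044, CYTB 0.15, COX2 0.16 and SSR4 0.041. With the highest transcript they were ELF5 1.86, ACTA2 0.12, IRF4 1.96 and BCL2L1 0.18. With the replicate block they were FABP3 -0.082, ACTA2 0.12, CTSB 0.12, COX1 -0.0085 and MKI67 -0.0037. With all 6 samples they were ACTA2 0.0082, CTSB 0.054 and MKI67 -0.26. With near-identical samples counted once they were MKI67 -0.070. With each sample left out the range was -0.27 to 0.34 for ACTA2, -0.020 to 0.34 for B4GALT1, -0.048 to 0.095 for COX1, -0.79 to 0.78 for CTSB, -0.52 to 0.48 for ELF5, -0.32 to 0.36 for FABP3, -0.66 to 0.036 for IRF4, -0.18 to 0.10 for JCHAIN, -0.63 to 0.77 for MFGE8 and -0.22 to 0.38 for MKI67.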

Other observations

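Contractile genes beside KRT5 and CNN1 also had PL sample 2 lowest among the PL samples. ACTA2, smooth muscle actin, was at 672, 1369.7 and 1549 units in PL and 1197, 1039.9 and 1231 in LG, TPM2, a tropomyosin, at 177, 485 and 375 units in PL and 211, 166 and 204 in LG, and LMOD1, leiomodin, at 5.55, 18.8 and 15.2 units in PL and 6.51, 6.51 and 7.43 in LG. As deposited 0 of the 3 passed, and all 3 rose after median-ratio scaling. PPARG, the adipocyte nuclear receptor, was listed at 0 in PL samples 3 and 6 and at 4.88 units in PL sample 2, against 8.46, 6.55 and 10.9 units in LG, and did not pass (-3.02, standard error 1.08, adjusted p = 0.0784).

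RNA-binding and matrix genes held further falls. HNRNPA1, a splicing regulator, was at 59.9, 88.2 and 82.8 units in PL and 231, 223 and 252 in LG and fell under both scalings (-1.62, standard error 0.25, adjusted p = 0.00194 as deposited). PRPF40B, a splicing factor, was at 0.122, 0.384 and 0.725 units in PL and 4.46, 3.64 and 6.15 in LG and also fell under both (-2.55, standard error 0.32, adjusted p = 0.000611 as deposited). LUM, the matrix proteoglycan lumican, was at 43.0, 97.0 and 61.0 units in PL and 148, 131 and 246 in LG and fell under both (-1.40, standard error 0.31, adjusted p = 0.0116 as deposited), lost without LG sample 4 (adjusted p = 0.058). C1QB and C1QC, the partner chains of C1QA, fell as deposited (-1.10 and -1.22 on the log2 scale) but did not pass after scaling, and were lost without LG sample 1 or 4 or without PL sample 2 (adjusted p from 0.0683 to 0.103) and without LG sample 1, 3 or 4 or without PL sample 2 (adjusted p from 0.0615 to 0.14), respectively.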
